A study of Mus musculus with 2 samples.

Results

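The 10 genes described here encode apolipoproteins, the proteins that cover lipoprotein particles, and were taken as a list by name: Apoa1, Apoa2, Apoa4, Apoa5, Apob, Apoc1, Apoc3, Apoe, Apoh and Apom, out of 21883 protein-coding genes on chromosomes 1 to 19, X and Y in RefSeq GRCm38.p6. Genes whose surroundings overlap were counted as 1 locus, which gave 6 loci: the cluster of Apoa1, Apoc3, Apoa4 and Apoa5, the pair Apoc1 and Apoe, and Apoa2, Apob, Apoh and Apom alone. What was read at each gene were peak summits of Hnf4a ChIL-seq, inside the gene or up to 50 kb from its ends. ChIL-seq (chromatin integration labelling) carries Tn5 transposase to an antibody on fixed cells, so that a T7 promoter is inserted beside the protein and the neighbouring DNA is transcribed in place and sequenced.

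The single group consisted of iHepCs, induced hepatocyte-like cells made from embryonic fibroblasts of wild-type (WT) C57BL/6J mice with a retroviral vector for Foxa2 and Hnf4a, and it had 2 biological replicates according to the series text. All cells were grown with insulin, 100 nM dexamethasone, nicotinamide, 20 ng/ml hepatocyte growth factor and 20 ng/ml epidermal growth factor. No fibroblasts, hepatocytes, uninfected cells or antibody controls were analysed here, so there was no contrast between conditions to test. The labels name the cell type as fibroblast and the tissue as embryo, after the starting cells. They do not separate Hnf4a made from the vector from that of the cells' own gene, and the peak names of both libraries carry the same lot mark, with no word on what the lot is. The sources used here do not say whether the replicates came from separate inductions.

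Apolipoproteins hold together and direct the particles that carry cholesterol and triglyceride in plasma. Apob is the structural backbone of very low and low density lipoproteins, Apoa1 and Apoa2 are the main proteins of high density lipoprotein, the C proteins and Apoa5 adjust lipolysis of triglyceride, and Apoe is a ligand for uptake by hepatic receptors. The liver makes most of them, and Hnf4a, a nuclear receptor that binds DNA as a homodimer, is a known activator of several of these genes in hepatocytes. Foxa2 is a forkhead factor that opens chromatin at liver genes.

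The lists held 21283 summits in replicate 1 and 24097 in replicate 2, each a single base in mm10 with the authors' −log10 q as its score. The lists' median scores were 7.32 and 6.67. Such lists hold no read totals, so the depth behind a summit is unknown. Summits of both replicates at most 100 bp apart were called shared, and there were 9193 such pairs in all. Of the markers set for the cell type check, 5 of 6 hepatocyte genes had a shared summit inside or within 50 kb of the gene and 0 of 6 fibroblast genes did, against 47.9% of all protein-coding genes. Within 10 kb, 2 of the 6 hepatocyte genes had one, against 26.0% of all genes. Apoa1 and Apob are among those 6 hepatocyte genes, and a summit does not show how strongly a gene is expressed. A further 2 of the 6 lie close together with overlapping windows, and they were counted as separate genes. Each replicate alone had a summit within 50 kb of all 6 hepatocyte genes. Of the 6 fibroblast genes, 3 had one in replicate 1 and 5 in replicate 2, against 70.2% and 73.4% of all genes.

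Shared summits were found at all 6 apolipoprotein loci and lay mostly outside the genes themselves. Of single protein-coding genes, 47.9% had a shared summit inside or within 50 kb, and 13.5% had one inside. No such share was computed for loci or over all pairs. Of 11 shared summits in the windows, 2 were inside a member, in Apoa2 and Apoh. A further 2 had a member as their nearest gene, Apob and Apoc1, though the Apoc1 pair was almost as near to Apoc4. The other 7 were in or nearest to neighbouring genes that are not apolipoproteins, and 4 of these stood at most 325 bp outside a neighbour, on the side of its start (Cep112, Nectin2, Tomm40 and Prrc2a). The summits of a pair were 4 to 64 bp apart, with a median of 31 bp.

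**Figure D1:**
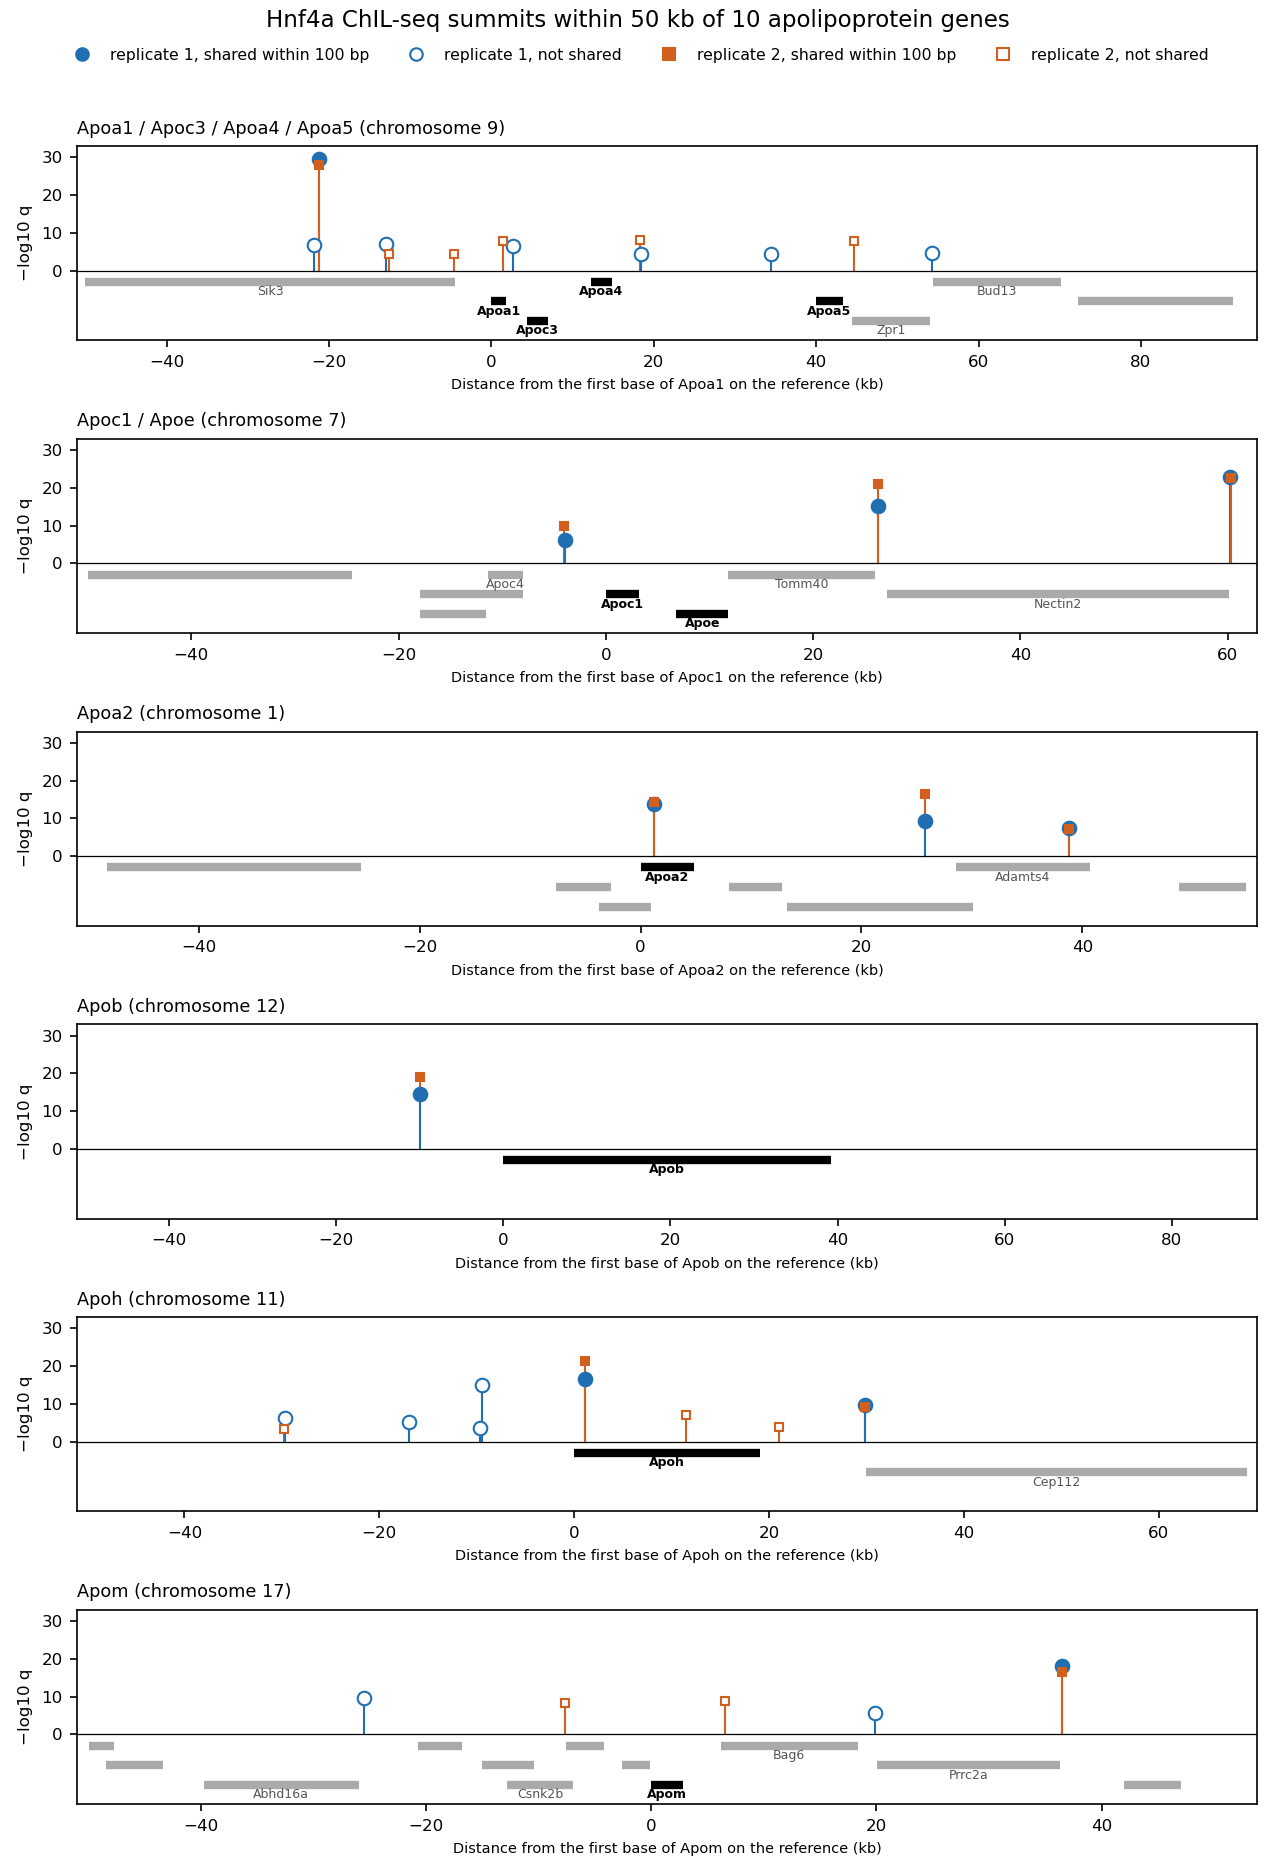
Summits of replicate 1 (circles) and replicate 2 (squares) in the windows of the 6 loci, plotted by distance in kb from the first base of the first member of each locus, with the −log10 q score as height. Filled marks are summits with a counterpart within 100 bp, black bars are the 10 members and grey bars other protein-coding genes, labelled where the text names them; the highest pair, 29.6 and 27.9, stands in Sik3 beside the Apoa1 cluster, and no pair stands between Apoa1 and Apoa5.

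Apob lies at 7977629 to 8016839 on chromosome 12, and no other protein-coding gene reaches into its window. It had 1 summit in each replicate, at 7967622 in replicate 1 and 7967618 in replicate 2. These were the closest pair of the 11, 4 bp apart, and they stood 10007 and 10011 bp before the gene. The score was 14.5 in replicate 1, rank 2802 of its list, and 19.1 in replicate 2, rank 1278. Measured from the RefSeq start site of Apob at 7977677, on the plus strand, the summits were 10055 and 10059 bp upstream. Neither replicate had a summit inside the 39211 bp of the gene.

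The cluster on chromosome 9 holds Apoa1 (46228630 to 46230469), Apoc3, an inhibitor of lipoprotein lipase (46233050 to 46235636), Apoa4, which intestine and liver secrete on lipid-rich particles (46240844 to 46243458), and Apoa5, an activator of triglyceride clearance (46268608 to 46271921). Replicate 1 had 7 summits in the window of the cluster and replicate 2 had 6, but only 1 pair was shared. That pair, at 46207398 and 46207447, had the best scores of all 11, 29.6 in replicate 1 and 27.9 in replicate 2. It ranked 377 in replicate 1 and 411 in replicate 2, inside the best 1.77% and 1.71% of the lists. It lies within Sik3, a salt-inducible kinase gene, and 21232 and 21183 bp upstream of the Apoa1 start. Apoa1, Apoc3 and Apoa4 all have a shared summit through this pair alone. For Apoa5 it was 61210 bp away, so Apoa5 was the member with no shared summit in its window.

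Among the cluster's own genes each replicate had summits, but none within 100 bp of one in the other. Inside Apoa1, replicate 2 had a summit at 46230065 with a score of 7.91, and the nearest summit of replicate 1, at 46231236 with 6.51, lay 767 bp past the gene. Past Apoa4, replicate 1 had a summit at 46247074 (4.50) and replicate 2 at 46246875 (8.19), 199 bp apart. Before Apoa5, replicate 1 alone had a summit at 46263025 (4.50), and after it replicate 2 alone had one at 46273228 (7.77), inside the neighbour Zpr1, a zinc finger protein gene. The 3 replicate 2 scores given here held ranks of 8557 to 9323 of 24097, and the 3 replicate 1 scores ranks of 12699 to 17647 of 21283. Beyond Apoa5, replicate 1 had a summit 102 bp upstream of the start of Bud13, a splicing factor gene, with a score of 4.60. The remaining unshared summits were inside Sik3, 2 in each replicate, with scores of 4.43 to 6.92.

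From this cluster the Apoa4 promoter is shown as the only member stretch with HNF4 letters, and that of Apoa1 as the only one with FOXA letters at more than 1 place. Both are the 250 bases before the RefSeq start on the plus strand in GRCm38.p6, chr9:46228380-46228629 and chr9:46240594-46240843, and capitals mark the matches.
Apoa1: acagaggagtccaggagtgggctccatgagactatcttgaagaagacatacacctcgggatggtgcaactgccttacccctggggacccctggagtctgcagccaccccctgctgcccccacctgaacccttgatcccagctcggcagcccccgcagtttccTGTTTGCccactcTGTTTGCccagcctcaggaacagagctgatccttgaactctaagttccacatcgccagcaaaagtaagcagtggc
Apoa4: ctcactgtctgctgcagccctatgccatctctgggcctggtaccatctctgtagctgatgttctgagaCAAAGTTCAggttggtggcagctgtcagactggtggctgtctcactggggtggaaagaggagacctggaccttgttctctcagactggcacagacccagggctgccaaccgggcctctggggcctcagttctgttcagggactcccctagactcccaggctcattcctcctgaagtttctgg
The Apoa1 stretch holds the FOXA letters TGTTTGC at 2 places, 69 to 75 and 82 to 88 bp before the start. The Apoa4 stretch holds the HNF4 letters CAAAGTTCA 174 to 182 bp before the start. The Apoa5 promoter, not shown, holds TGTTTGC 69 to 75 bp before its first start. No summit of either replicate lay in these stretches; the nearest stood 1435 bp past the start of Apoa1 and 6031 bp past the start of Apoa4, both in replicate 2.

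Apoa2 is on chromosome 1 at 171221564 to 171226379. All 3 summits of replicate 1 in its window had a counterpart among the 3 of replicate 2. The pair inside the gene was at 171222769 (13.8, rank 3143) and 171222797 (14.4, rank 2697). RefSeq gives Apoa2 a distal and a proximal start on the plus strand, and the pair fell between them, 1205 and 1233 bp after the distal start at 171221564 and 2285 and 2257 bp before the proximal start at 171225054. The outermost pair, 33978 and 33987 bp from Apoa2, lay in Adamts4, a protease gene, and scored 7.30 in replicate 1 and 7.24 in replicate 2.

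Apoc1, which restrains lipoprotein uptake and lipolysis, and Apoe lie side by side on chromosome 7, at 19689480 to 19692659 and 19696244 to 19701310. Here too the replicates had the same number of summits, 3 each, and all were shared. The pair nearest the genes was at 19685527 (6.06) and 19685481 (9.79), in the interval between Apoc4 and Apoc1. It stood 3953 and 3999 bp from Apoc1, 4067 and 4021 bp from Apoc4, and 10717 and 10763 bp from Apoe. Its replicate 1 score was the lowest of all shared summits at these loci. The middle pair, at 19715703 (15.2) and 19715767 (21.1), lay 261 and 325 bp outside Tomm40, a mitochondrial import gene that adjoins Apoe, on the side of its start. The outermost pair, at 19749723 (23.0) and 19749754 (22.5), was 150 and 181 bp upstream of Nectin2, which encodes a cell adhesion protein. Gm34744, a gene on the opposite strand, has a start between the summits, 13 bp after the first and 18 bp before the second. The Nectin2 pair is in the window of Apoe, at 48413 and 48444 bp, and outside that of Apoc1, at up to 57095 bp. At this locus the scores were higher the farther a pair lay from Apoc1 and Apoe, in both replicates.

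Apoh, beta-2-glycoprotein I, a plasma protein that binds phospholipid, is on chromosome 11 at 108395297 to 108414396. The pair inside the gene, at 108396441 and 108396457, was 1144 and 1160 bp after the start on the plus strand. It scored 16.6 in replicate 1 (rank 1999) and 21.4 in replicate 2 (rank 898), the best pair inside or nearest to a member. Both scores here were above the median of all shared summits, 9.93 in replicate 1 and 9.61 in replicate 2. The other pair, at 108425182 (9.60) and 108425154 (9.26), stood 33 and 61 bp before Cep112, a centrosomal protein gene, and 10786 and 10758 bp after Apoh. The locus also had summits of a single replicate. Replicate 1 had 4, of which the one at 108385888, 9409 bp before Apoh, scored 15.0, the highest unshared score at any of the 6 loci. Replicate 2 had 3, with scores of 3.41 to 7.16, and one of these was inside Apoh at 108406800.

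The Apoh promoter is shown beside the pair that follows it, with capitals at the FOXA letters TGTTTAC, 65 to 71 bp before the start (chr11:108395047-108395296, plus strand). The promoters of Cep112 (chr11:108425016-108425265, plus strand) and Nectin2 (chr7:19749574-19749823, minus strand) are shown because each holds both summits of a pair; counted with 50 bases past the start, the window of Gm34744 holds the Nectin2 pair too. In these, capitals mark the bases from the summit of one list to that of the other.
Apoh: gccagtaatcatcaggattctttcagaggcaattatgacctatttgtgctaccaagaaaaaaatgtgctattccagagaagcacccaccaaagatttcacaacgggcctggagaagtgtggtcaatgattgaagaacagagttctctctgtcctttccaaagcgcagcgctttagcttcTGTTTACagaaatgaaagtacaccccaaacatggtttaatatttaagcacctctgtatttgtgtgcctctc
Cep112: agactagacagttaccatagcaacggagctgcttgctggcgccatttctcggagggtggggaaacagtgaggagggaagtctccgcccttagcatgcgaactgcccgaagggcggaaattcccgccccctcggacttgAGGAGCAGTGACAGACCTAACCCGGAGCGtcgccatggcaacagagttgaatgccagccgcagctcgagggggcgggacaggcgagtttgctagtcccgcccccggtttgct
Nectin2: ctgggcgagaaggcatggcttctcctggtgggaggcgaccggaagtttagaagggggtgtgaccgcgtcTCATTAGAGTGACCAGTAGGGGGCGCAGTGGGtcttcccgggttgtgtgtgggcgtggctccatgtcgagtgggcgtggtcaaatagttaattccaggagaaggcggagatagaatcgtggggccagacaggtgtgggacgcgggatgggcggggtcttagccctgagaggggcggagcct
The span between summits covers the bases 84 to 112 bp before the start of Cep112 and 150 to 181 bp before that of Nectin2. None of the HNF4, FOXA, CEBP or TATA letters searched occurred in either stretch. The HNF1 half-site GTTAAT occurred in that of Nectin2, 90 to 95 bp before the start and outside the span.

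Apom, a lipocalin that carries sphingosine 1-phosphate on high density lipoprotein, lies on chromosome 17 at 35128997 to 35131801, in the most gene-dense window of the 10, with 11 other protein-coding genes. Its only shared pair, at 35165473 (18.1) and 35165510 (16.6), was 33672 and 33709 bp away and 152 and 189 bp outside Prrc2a, a gene for a proline-rich coiled-coil protein, which put it 596 and 633 bp upstream of that gene's RefSeq start. The summits nearest to Apom were single. Replicate 2 had one inside Bag6, a chaperone gene, 3704 bp from Apom (8.72), and one 48 bp upstream of a start of Csnk2b, a casein kinase subunit gene (8.18). Replicate 1 had none nearer to Apom than 17043 bp (5.64, beside Prrc2a), and its other unshared summit, 441 bp from the lipase gene Abhd16a, scored 9.59.

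Counted by gene, 9 of the 10 members had a shared summit inside or within 50 kb, against 47.9% of all protein-coding genes. Within 10 kb the count was 3 (Apoa2, Apoc1 and Apoh) against 26.0% of all genes, and inside the gene it was 2 against 13.5%. The members therefore stood above the share of all genes in the wide window and close to it in the narrow one. With summits of score 10 or more in both lists, 9 members still had a shared pair within 50 kb, against 22.0% of all genes. Members of a locus share their summits: 3 of the 9 rest on the pair in Sik3 and 2 on pairs around Apoc1 and Apoe. Each replicate alone had a summit within 50 kb of all 10 members, against 70.2% of genes in replicate 1 and 73.4% in replicate 2. A member's window held a median of 6.5 other protein-coding genes, against 3 over all genes, while the median gene length was 3247 bp against 17170 bp. The part of gene density in these counts was not tested, and the members were chosen with earlier results of these data known.

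The members differed in how near their closest shared summit was. It lay inside Apoa2 and Apoh, 3999 bp from Apoc1, 10011 bp from Apob and 10763 bp from Apoe, taking the farther summit of each pair. For Apoa1 and Apoc3 it was 21232 and 25652 bp away, for Apoa4 and Apom 33446 and 33709 bp, and for Apoa5 61210 bp. The median over the 10 was 15997.5 bp (lower and upper quartiles 5502 and 31497.5 bp), against 55337 bp over all protein-coding genes. These 10 distances are not independent. Those of Apoa1, Apoc3, Apoa4 and Apoa5 run to the same pair, and those of Apoc1 and Apoe to another. A pair as near as that of Apoc1 was found for 21.5% of genes, and as near as that of Apoa5 for 52.0%. Apoa2 and Apoe had the most shared summits, 3 each, a number reached by 8.44% of genes.

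**Figure D2:**
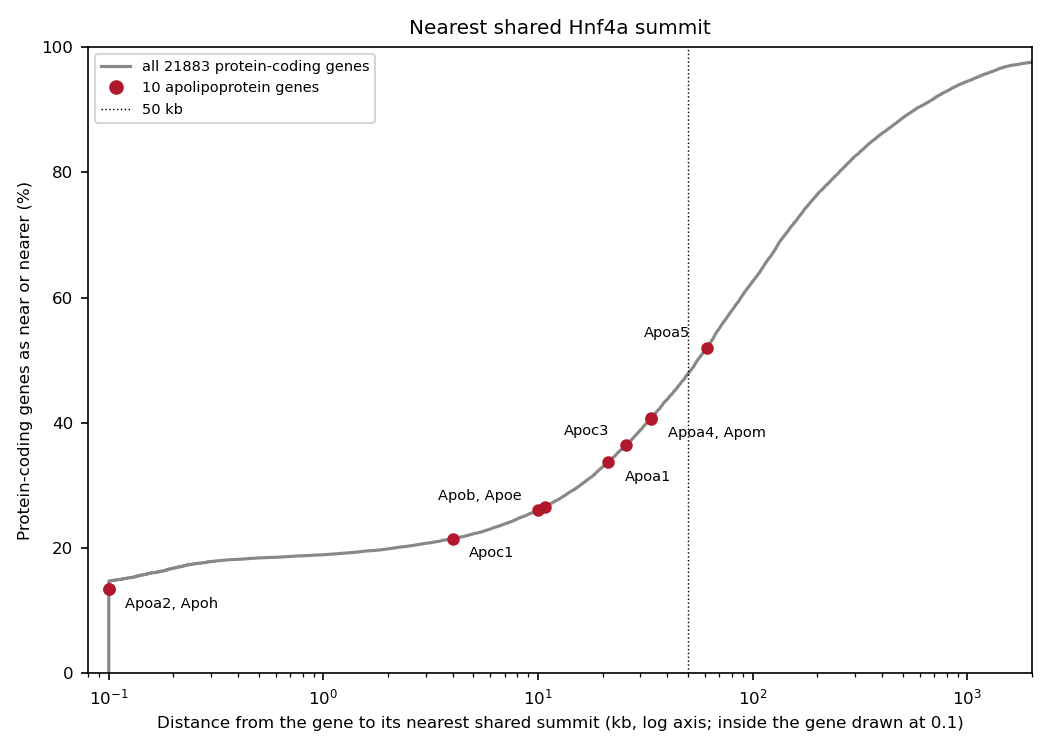
Share of all 21883 protein-coding genes (grey line, percent) whose nearest shared summit is as near as the distance on the log x axis (kb, summits inside a gene drawn at 0.1), with the 10 members as red points. Apoa2 and Apoh stand at the left end, Apoa5 is the only point beyond the dotted line at 50 kb, and all but Apoa5 lie below the middle of the gene distribution.

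The limits set for the windows and pairs touched a few summits. The summits that just missed being shared were in the window of Apoh, 29656 and 29757 bp before the gene, at 108365641 in replicate 1 (6.32) and 108365540 in replicate 2 (3.41), 101 bp apart. Just inside the window were the Nectin2 pair of Apoe at 48444 bp, and just outside a pair 54933 bp from Apoa2 (13.3 in replicate 1 and 12.7 in replicate 2) and one 57355 bp from Apob (21.0 and 15.0). Apob would thus have a second pair, of like scores, in a wider window.

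The shared part of the summits at these loci rests on few summits and was somewhat above that of the lists. Of 23 summits of replicate 1 at the 6 loci, 47.8% were shared (95% exact binomial interval 26.8 to 69.4), against 43.2% of its whole list. Of 21 in replicate 2, 52.4% were shared (29.8 to 74.3), against 38.2% of its list. The intervals cover counting error only and include the shares of the whole lists. They are wide and treat summits of a locus as independent, so they cannot decide whether the shares are alike. Among those shared, replicate 1 scored a median of 14.5 and replicate 2 one of 16.6, with ranges of 6.06 to 29.6 in replicate 1 and 7.24 to 27.9 in replicate 2. The replicate 2 score was the higher in 6 pairs and the replicate 1 score in 5. The pair beside Apoc1 differed most in rank, 13738 in replicate 1 and 6127 in replicate 2. In 7 of the 11 pairs both scores were in the best 25% of their list, which held for 32.0% of all shared pairs. Among these were the pairs in or nearest to Sik3, Tomm40, Nectin2 and Prrc2a, which are not apolipoprotein genes. The rest were the pairs inside Apoa2 and Apoh and the pair before Apob. Unshared summits had lower scores, 3.69 to 15.0 (median 5.98) for 12 in replicate 1 and 3.41 to 8.72 (median 7.46) for 10 in replicate 2.

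**Figure D3:**
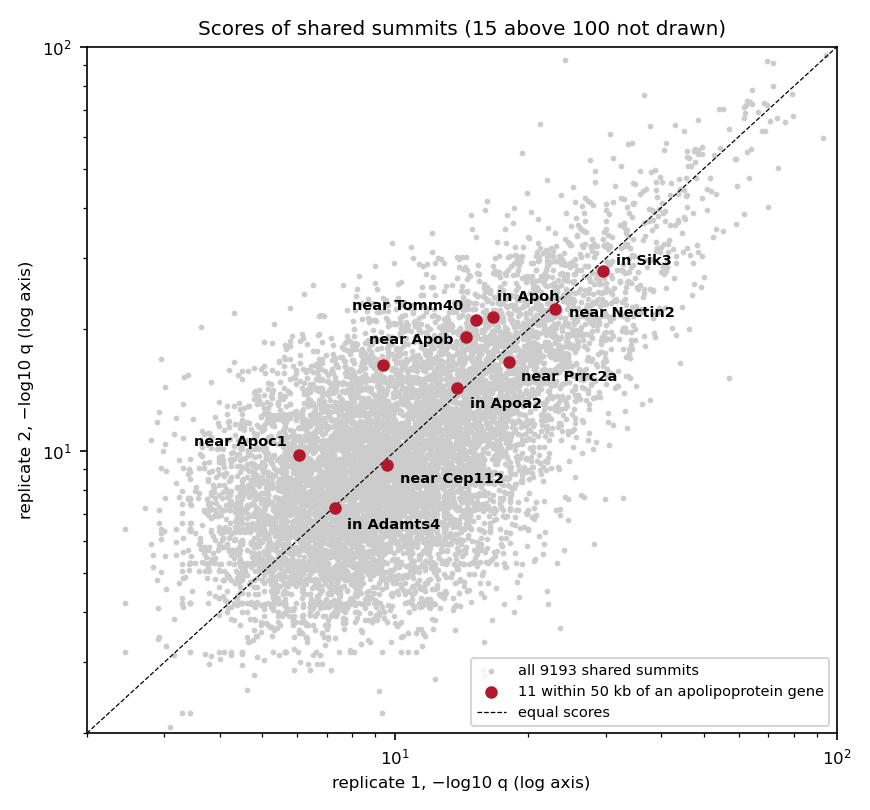
Scores (−log10 q, log axes) of each shared pair in replicate 1 (x) and replicate 2 (y), with the 11 pairs at the apolipoprotein loci in red, labelled, where the text names it, with the gene that holds them or is nearest, and all 9193 pairs in grey apart from 15 over 100. The red points lie on both sides of the dashed line of equal scores, 6 above it and 5 below.

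Promoter letters were searched for 8 of the 10 members, which have 12 start sites in the RefSeq promoter table; Apoc1 and Apoc3 have no entry in it. The 250 bases before each start were searched on both strands for exact letters only. Stretches that differ from them by a single base were not counted. The HNF4 letters CAAAGTCCA, CAAAGTTCA or CAAAGGTCA occurred in 1 of the 12 member stretches (Apoa4) and in 1.14% of all 32851 stretches. The FOXA letters TGTTTAC or TGTTTGC occurred in 6 of the 12, from 5 members (Apoa1, Apoa2, Apoa5, Apob and Apoh), and in 7.29% of all stretches. Both Apoa5 stretches overlap and hold the same match. The TATA letters TATAAA occurred in 5 of the 12, from 4 members (Apoa2, Apoa5, Apob and Apoe), and in 12.4% of stretches, and GTTAAT in 1 of the 12 (Apoe) and in 6.43%. The CEBP letters TTGCGCAA and TTGCGTAA occurred in no member and in 0.317% of stretches. Apom had no match. These are matches of letters and not measured sites, and no member stretch held a summit of either replicate. Over the whole table, 995 stretches hold a shared pair. They had HNF4 letters in 0.905% of cases (9 stretches) and FOXA letters in 5.23%, against 1.14% and 7.36% of the others. The TATA letters (5.03% against 12.6%) and GTTAAT (3.52% against 6.52%) were also rarer in them. The CEBP letters were more frequent, 0.804% (8 stretches) against 0.301%.

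Genes that act with apolipoproteins were taken as 5 lists set for this purpose. Of their 58 members, 42 had a shared summit in the wide window (72.4%), against 47.9% of all genes. By list the share ran from 60% for 10 lipases and remodelling genes, near that of all genes, to 81.8%. Counted by locus, with genes whose windows overlap taken once, 37 of 52 had a shared summit. No share over loci of all genes was computed to set beside it. The locus of Apoc2 and Apoc4 is that of Apoc1 and Apoe. The lists are small and were chosen with earlier results of these data known. Their members were not tested against other genes, and the part of gene density and gene length in these counts was not tested. Of 11 further apolipoproteins and lipoprotein-bound proteins, 9 had a shared summit within 50 kb (all genes 47.9%) and 5 within 10 kb (all genes 26.0%). They included Pon1 and Pon3, paraoxonases of high density lipoprotein with pairs inside the gene (36.7 in replicate 1 and 22.5 in replicate 2, and 17.0 and 13.0), and Apon, with a pair 446 and 362 bp away (7.15 and 7.87). Apoc2, the activator of lipoprotein lipase, and Apoc4 had the same pair as Apoc1.

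Of 12 genes for particle assembly and secretion, 8 had a shared summit within 50 kb (all genes 47.9%) and 7 within 10 kb (all genes 26.0%). Cideb, which enlarges lipoprotein particles, had a pair inside the gene (28.4 in replicate 1 and 32.2 in replicate 2). Mia3 and Mia2, which shape exit sites for bulky cargo, had pairs 291 and 290 bp (23.9 and 27.6) and 8870 and 8882 bp (28.7 and 20.5) from the gene. Apobec1, which edits Apob messenger RNA, had a pair 7051 and 7094 bp away (13.1 and 19.3). Mttp, which loads lipid onto Apob, had none within 50 kb.

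Of 10 lipases and remodelling genes, 6 had a shared summit within 50 kb (all genes 47.9%) and 4 within 10 kb (all genes 26.0%). Hepatic lipase, Lipc, had a pair inside the gene (17.8 in replicate 1 and 15.3 in replicate 2) and Angptl4, an inhibitor of lipoprotein lipase, one 7283 and 7239 bp away (19.1 and 29.9). Lipg, endothelial lipase, had one at 173 and 179 bp (13.3 and 16.9), and Pltp, the phospholipid transfer protein gene, one at 5864 and 5924 bp (4.09 and 5.78).

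Of 12 receptor and uptake genes, 9 had a shared summit within 50 kb (all genes 47.9%) and 4 within 10 kb (all genes 26.0%). They included Lrp1, a remnant receptor (13.1 in replicate 1 and 13.7 in replicate 2), Cubn, a receptor for Apoa1 in kidney and intestine (6.59 and 12.4), and Scarb1, the receptor of high density lipoprotein (11.7 and 4.70).

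Of 13 known regulators of apolipoprotein genes, 10 had a shared summit within 50 kb (all genes 47.9%) and 7 within 10 kb (all genes 26.0%). By the worse of both ranks the best pair within 10 kb was beside Nr2f1, an orphan nuclear receptor (21.1 in replicate 1 and 14.3 in replicate 2), followed by Cebpa, a liver differentiation factor (12.6 and 10.8), Nr5a2, a regulator of bile acid synthesis (8.21 and 14.2), and Nr1h2, an oxysterol receptor (6.43 and 8.93). The gene Hnf4a itself had 2 shared summits within 50 kb and 0 within 10 kb.

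**Figure D4:**
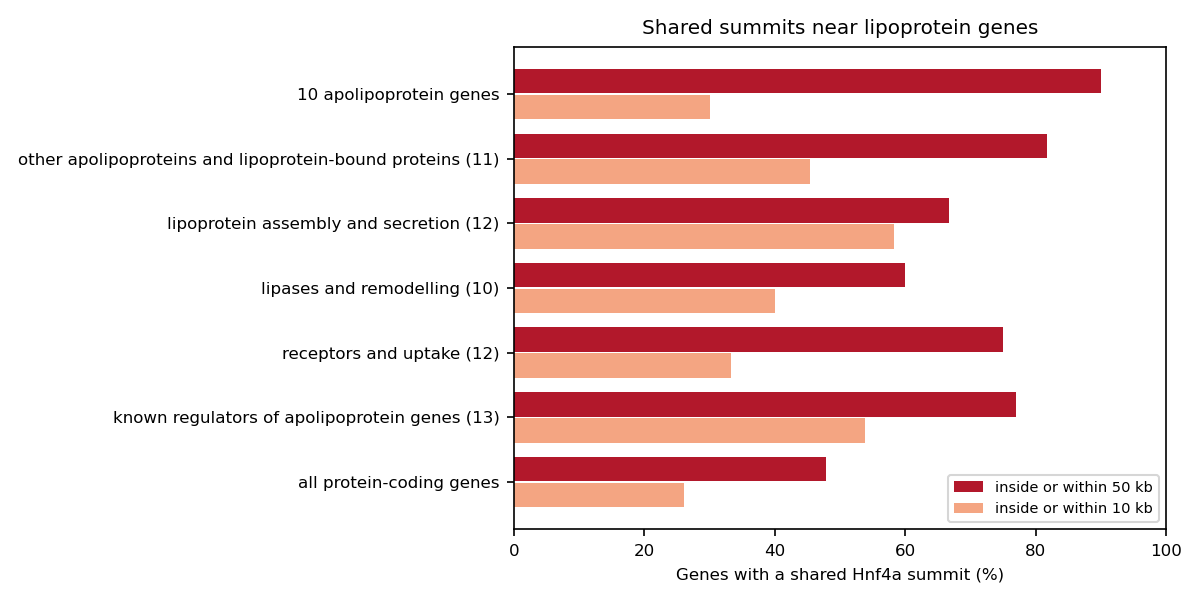
Percent of genes with a shared summit inside or within 50 kb (dark bars) and within 10 kb (light bars) for the 10 apolipoprotein genes, the 5 lists of related genes with the number of genes in brackets, and all protein-coding genes. The dark bar is longest for the 10 apolipoprotein genes (90%), followed by that of 11 other apolipoproteins and lipoprotein-bound proteins (81.8%). The light bar of the 10 genes (30%) is close to that of all genes (26.0%). It is shorter than that of each of the 5 lists.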

How the data were processed

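Per the submitters' processing notes, MACS2 (2.2.9.1), the aligner HISAT2 (2.0.5) and fastp (0.23.4) were used on mm10. The 2 deposited lists hold 1-bp summits per library, and the values used are the authors' −log10 q-values per summit. Peak names carry a q threshold of 0.01. A control library, duplicate removal and region filters are not given in the sources used here. Scores were ranked within each list and not scaled between lists.

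Summits were paired across lists within 100 bp, nearest first, each used once. Distances run to the gene's ends in RefSeq GRCm38.p6, the assembly of mm10; a pair counted in a window if both summits lay in it. Exons and introns were not analysed here. Start sites and promoter sequences came from RefSeq GRCm38.p6. With 1 group of 2 samples, no test was run. The members, lists and motifs were chosen with earlier results of these data known. All 10 members are named. From each list, up to 4 genes with a pair within 10 kb were named, by the worse rank of both scores. Apoc2 and Apoc4 tied for the last place in their list, and both were named. Other list genes (Mttp, Hnf4a) were named after their values were seen. A few genes that this rule or the windows hold are not reported here. Alternatives changed the pairing distance, window, score minimum and replicates used. The pairing and window code was checked on simulated lists. Scripts ran in Python 3.11.15; scipy 1.17.1 gave the intervals, matplotlib 3.10.9 the plots, and pandas 2.3.3 with numpy 2.4.6 the tables.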

Additional observations from a re-analysis of the deposited data

How the results depend on the processing

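The main settings gave 11 shared summits at 9 members and 6 loci, and 42 of 58 genes of the related lists. The window mattered most. With 1 kb the values were 2, 2, 2 and 16, with 10 kb 3, 3, 3 and 27, and with 100 kb 19, 10, 6 and 50. The share of all protein-coding genes was 47.9% in the main setting, 18.9% at 1 kb, 26.0% at 10 kb and 62.6% at 100 kb, so that 2 and 3 of 10 members are near it in the narrow windows. With scores of 10 or more, 7 summits and 21 list genes were left, at the same 9 members and 6 loci (22.0% of all genes). Leaving out a replicate, so that summits of the other alone were counted, gave 21 to 23 summits, 10 members, 6 loci and 52 to 54 list genes, while the share of all genes rose to 70.2% and 73.4%. Pairing within 50, 200 or 500 bp, scores of 5 or more, the 10000 best-scored summits, merged regions and start sites only moved no count by over 1.5 times. Under these settings the share of all genes ran from 32.0% to 54.5%. Start sites only could cover 8 of the 10 members, and 7 had a shared summit, against 41.0% of 17491 genes. It left 28 list genes, at the limit of 1.5 times. Apoa5 gained a shared summit at 200 and 500 bp. Of the 8 members with promoter sequence, 7 held any motif letters, against 0 for CAAAGTCCA alone, 1 for CAAAGTTCA, 0 for CAAAGGTCA, 2 for TGTTTAC, 3 for TGTTTGC, 1 for GTTAAT, 0 for TTGCGCAA, 0 for TTGCGTAA and 4 for TATAAA. No paired analysis was possible because there is 1 group. Depth is unknown, so what it limits cannot be given.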
